A study of Mus musculus with 79 samples.

Results

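T+ cells of T knockout embryos were compared with T+ cells of wild-type embryos at Theiler stage 12 (TS12). T, also called Brachyury, is the T-box transcription factor that gave the family its name. The comparison took 2 of the series' 79 samples, 1 RNA library of each genotype, and 2 more, the T+ pair of TS13, served where a second stage was needed. Of 23983 gene symbols in the deposited table, 19514 were kept after small RNA genes, numbered gene models and ribosomal protein pseudogenes were left out. Genes with at least 5 FPKM (fragments scaled to transcript length and to the library's mapped fragments) in either library were compared, which gave 7825 genes beside T, Tbx6 and Sox2, the genes that libraries of the series were sorted on or lacked.

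The study profiled cells of the caudal end of the mouse embryo, where the trunk and tail are laid down. Embryos of both genotypes were grown from embryonic stem cells by tetraploid complementation, in which the stem cells form the embryo inside a tetraploid host, and samples were pooled before dissociation with trypsin and cell sorting. The T knockout (T KO) library came from T+ cells of embryos written T2J/2J in the labels, with the strain given as C57BL/6J. The wild-type (WT) library came from T+ cells of WT embryos, with the strain given as C57BL/6N. The T KO and WT libraries of TS13 carry the same strain labels, so genotype and strain label cannot be told apart at either stage or in a fit over both. About 20000 cells went into each library, which was depleted of ribosomal RNA, strand-specific and amplified in 15 cycles. The sources used here do not give how T+ cells were recognised in the knockout, how many embryos made a pool or how many stem cell clones were used.

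T is expressed in the primitive streak, in the nascent mesoderm that leaves it and in the notochord, and mouse embryos without it fail to form the posterior trunk. In the caudal epiblast it stands together with Sox2 in neuro-mesodermal progenitors, which give rise to spinal cord and to presomitic mesoderm. Wnt and FGF signals maintain these progenitors, retinoic acid from the somites opposes them, and Tbx6 and Msgn1 drive the step into presomitic mesoderm, where Notch signalling sets the rhythm of somite formation.

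The promoters of 4 genes on which the comparison turned are shown, 3 from the lower side (Msgn1, Dll1 and Cyp26a1) and 1 from the higher side (Nkx1-2). Each holds 250 bases before and 50 after an annotated start, read 5′ to 3′ on the gene's strand, from RefSeq on GRCm38.p6. The windows are chr12:11208899-11209198 for Msgn1, chr17:15375774-15376073 and chr17:15376883-15377182 for the annotated starts of Dll1, and chr7:132599588-132599887 for Nkx1-2, all on the minus strand, and chr19:37697558-37697857 for Cyp26a1 on the plus strand. Capitals mark CACACC, the core of the half-site that T-box proteins bind, and CTTTGNT, a core bound by the TCF and LEF factors of Wnt signalling, each searched on both strands. No capitals of one motif overlap those of the other in these windows.
Msgn1: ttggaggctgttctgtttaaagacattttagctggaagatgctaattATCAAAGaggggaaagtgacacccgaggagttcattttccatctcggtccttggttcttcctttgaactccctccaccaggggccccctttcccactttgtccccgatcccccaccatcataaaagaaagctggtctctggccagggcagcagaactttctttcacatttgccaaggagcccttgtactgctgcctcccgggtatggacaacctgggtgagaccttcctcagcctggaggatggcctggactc
Dll1, lower window: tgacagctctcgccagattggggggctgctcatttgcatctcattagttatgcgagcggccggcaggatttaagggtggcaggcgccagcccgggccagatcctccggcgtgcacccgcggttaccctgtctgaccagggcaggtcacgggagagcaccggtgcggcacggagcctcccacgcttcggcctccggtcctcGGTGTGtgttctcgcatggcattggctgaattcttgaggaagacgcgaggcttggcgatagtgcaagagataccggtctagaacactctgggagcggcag
Dll1, upper window: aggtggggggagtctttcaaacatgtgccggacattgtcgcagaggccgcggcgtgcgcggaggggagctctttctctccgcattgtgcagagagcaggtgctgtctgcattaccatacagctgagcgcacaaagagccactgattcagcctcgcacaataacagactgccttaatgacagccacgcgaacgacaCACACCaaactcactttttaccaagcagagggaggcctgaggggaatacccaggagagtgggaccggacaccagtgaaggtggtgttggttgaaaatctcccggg
Cyp26a1: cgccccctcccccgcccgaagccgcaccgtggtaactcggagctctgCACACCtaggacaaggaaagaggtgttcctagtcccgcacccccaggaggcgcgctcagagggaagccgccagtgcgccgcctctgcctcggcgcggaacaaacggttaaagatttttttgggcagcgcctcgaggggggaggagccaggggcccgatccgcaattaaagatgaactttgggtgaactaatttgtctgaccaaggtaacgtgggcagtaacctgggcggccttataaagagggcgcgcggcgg
Nkx1-2: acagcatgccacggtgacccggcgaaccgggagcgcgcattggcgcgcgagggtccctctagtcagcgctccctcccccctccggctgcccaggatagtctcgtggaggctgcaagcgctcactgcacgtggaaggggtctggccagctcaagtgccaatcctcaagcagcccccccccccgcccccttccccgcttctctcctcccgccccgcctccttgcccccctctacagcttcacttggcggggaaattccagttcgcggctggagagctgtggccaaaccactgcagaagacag

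CACACC stood once in each Dll1 window and once in the Cyp26a1 window, and CTTTGNT once in the Msgn1 window, on its minus strand. The letters CACACC stood in 13 of 54 lower genes with a promoter in the table (24.1%), in 14 of 46 higher genes (30.4%), in 19.5% of all 6076 compared genes with one and in 6257 of 32851 promoters in all. CTTTGNT stood in 7 of the lower genes (13.0%), in 11 of the higher genes (23.9%), in 15.4% of the compared genes and in 18.6% of all promoters. These counts describe letters in a window and no binding.

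The libraries were of like depth, estimated from the steps of single fragments at 20.8 M fragments for T KO and 21.9 M for WT, so that a transcript of 1 kb at 5 FPKM rested on about 104 fragments in T KO and 110 in WT, with a counting error of 9.81% in T KO and 9.55% in WT. The WT library stood apart in its low values. Of 1492 olfactory, vomeronasal and taste receptor genes, which these cells should not use, 32 were above 0 in T KO and 1056 in WT, with a median of 0.0952 FPKM in WT, while the other 4 libraries of the table and the separately prepared T+ library of TS12 had 24 to 36. A level in WT below about 0.44 FPKM, the 95th percentile of those receptor genes, was therefore within its background. With 1 library per genotype there is no test at TS12 alone, and a gene is called higher or lower when the difference of log2(FPKM + 1) was at least 1 either way. In what follows 2-fold means a difference of 1 on this scale, so a gene just past 2-fold in FPKM can stay uncalled. The one test took the 4 T+ libraries of TS12 and TS13 in limma on the log2(FPKM + 1) scale, with stage and genotype as terms, 1 residual degree of freedom and Benjamini-Hochberg adjusted p-values over 8143 genes. Its error comes from how far the genotype effect at TS12 departs from that at TS13 and not from any spread between embryos. The empirical Bayes step draws each gene's error towards that of genes of like level, so it is partly borrowed across genes. Only genes past an adjusted p of 0.05 are said to have risen or fallen.

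At TS12, T KO cells had 74 genes higher by at least 2-fold (0.946% of 7825) and 75 lower (0.958%), 1.90% together. The median difference of all compared genes was 0.03, and 4242 of them had a positive difference. Of the 75 lower genes 27 were at least 4-fold lower, and of the 74 higher genes 4 were at least 4-fold higher, the Y-linked Eif2s3y, Ddx3y and Uty and the histone gene Hist1h2ap. Over both stages 54 genes rose (0.663%) and 65 fell (0.798%) by limma, and 1019 of 8143 had an unadjusted p under 0.05. These counts moved with the settings, to 3 risen and 9 fallen genes without the stage term, 8 and 13 with a minimum of 20 FPKM, and 36 and 36 with upper-quartile scaling. Of the genes called at TS12, 39 of the 75 lower ones fell and 30 of the 74 higher ones rose. That fit holds the same TS12 libraries that made the calls, so these 2 counts are no independent evidence. The list counts given below, at TS12 and by limma, are to be read beside the shares over all genes. At the edge of the 2-fold rule, Limch1 stood just inside on the lower side (11.5 FPKM in T KO and 23.9 in WT) and Faim just outside (16.6 FPKM in T KO and 34.03 in WT). On the higher side, Tcea3 stood just inside (22.8 in T KO and 10.9 in WT) and R3hdm1 just outside (21.8 FPKM in T KO and 10.4 in WT). Gli1 passed the minimum with 4.66 FPKM in T KO and 5.00 in WT, and Zfp120, at 4.99997 FPKM in T KO and 4.53 in WT, did not.

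**Figure D1:**
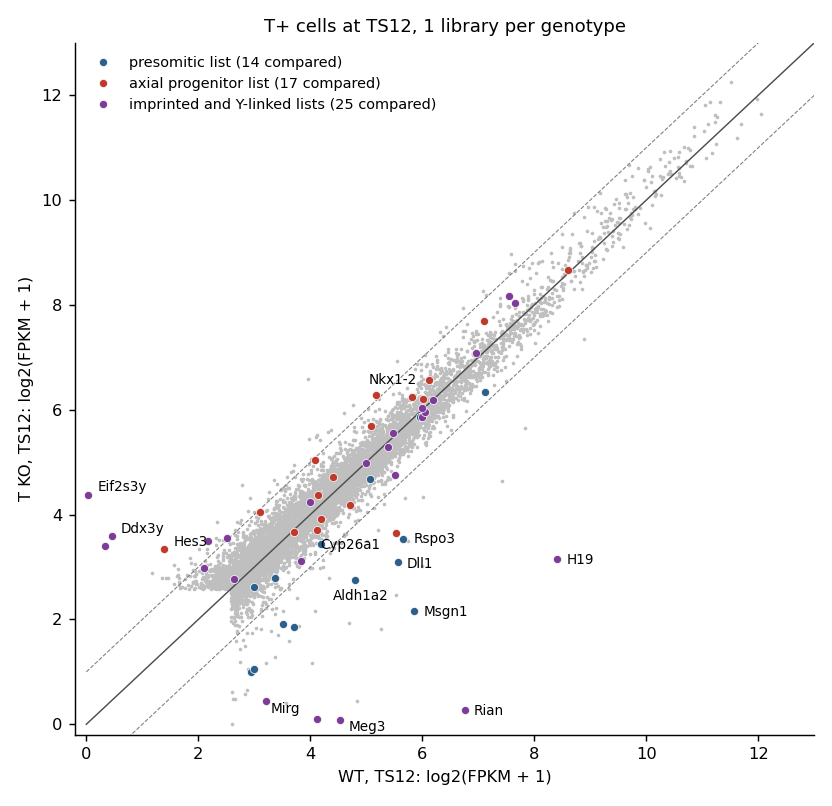
T KO (vertical axis) against WT (horizontal axis) at TS12, both as log2(FPKM + 1), 1 library each. Grey points are the 7825 compared genes, the solid line marks equal levels and the dashed lines a 2-fold difference. Msgn1, Dll1 and Rspo3 of the presomitic list lie below the lower line, Hes3 and Nkx1-2 above the upper one, and the imprinted RNAs Rian, Meg3 and H19 lie farthest below.

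The targeted gene was low in the knockout and not at 0. T had 4.61 FPKM in T KO and 69.8 in WT at TS12, and 3.32 in T KO and 76.4 in WT at TS13. Both knockout libraries were far below both WT libraries. Of the genes that flank T on chromosome 17, T2, Pde10a and Sft2d1 did not share this loss. T2 was at 2.17 FPKM in T KO and 0.99 in WT at TS12, Pde10a at 2.24 in T KO and 1.73 in WT, and Sft2d1 at 12.02 in T KO and 9.52 in WT. Prr18 was at 0.49 in T KO and 0.42 in WT, where the WT value was within the WT background, so it cannot show this. Tbx6, the T-box factor that commits cells to presomitic mesoderm, had 5.13 FPKM in T KO and 21.4 in WT at TS12, and 1.70 in T KO and 23.2 in WT at TS13. Sox2, the neural and progenitor factor, had 14.9 FPKM in T KO and 10.2 in WT at TS12, a difference of 0.50, and 43.5 in T KO and 11.99 in WT at TS13. These 3 genes were left out of the counts and the fit.

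Presomitic mesoderm genes had the largest share of lower members among the lists. Of 26 listed genes Tbx6 was left out, 11 stayed under 5 FPKM in both TS12 libraries, and 14 were compared. Of these, 8 were lower (57.1%, where 0.958% of all compared genes were), 0 were higher, all 14 had a negative difference, and the median was -1.73. By limma 10 of 15 tested members fell, against 0.798% of all 8143 genes. In bulk RNA fewer cells of a type and less RNA per cell cannot be told apart. The list was chosen with earlier results of these libraries known, so its count describes it and is no independent evidence.

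Msgn1, the basic helix-loop-helix factor of early presomitic mesoderm, led the list with 3.48 FPKM in T KO and 56.9 in WT at TS12, and 1.18 in T KO and 42.5 in WT at TS13. It differed by -3.69 at TS12 and fell over both stages (limma log2 change -4.01, SE 0.19, adjusted p = 1.41e-06). Dll1, the Notch ligand of presomitic cells, had 7.53 FPKM in T KO and 46.2 in WT at TS12, and 5.17 in T KO and 49.5 in WT at TS13. It fell by 2.75 on the log2 scale (SE 0.17, limma adjusted p = 1.46e-05). In both genes each knockout library was well below each WT library.

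Rspo3, a secreted enhancer of Wnt signalling, had 10.6 FPKM in T KO and 49.2 in WT at TS12, and it fell over both stages (limma log2 change -2.42, SE 0.17, adjusted p = 4.37e-05). Dkk1, which blocks the Wnt co-receptor Lrp6, had 0.99 FPKM in T KO and 6.72 in WT. Meox1, a homeobox factor of somites, had 1.07 FPKM in T KO and 6.99 in WT. Dkk1 and Meox1 fell by 2.19 and 2.12 on the log2 scale in limma (adjusted p = 0.0067 and 0.0058). The protocadherin Pcdh19 had 2.61 FPKM in T KO and 12.1 in WT, and the forkhead factor Foxc1 had 2.75 in T KO and 10.4 in WT. Both fell as well, by 2.27 and 1.43 (limma adjusted p = 0.0026 and 0.0059).

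Aldh1a2, the enzyme that makes retinoic acid in paraxial mesoderm, differed from these genes in its WT level. It had 5.76 FPKM in T KO and 26.7 in WT at TS12, but 2.50 in T KO and 5.79 in WT at TS13. It was among the genes high in the TS12 WT library alone, its difference at TS12 was -2.04, and it fell over both stages (limma log2 change -1.497, SE 0.25, adjusted p = 0.016). Against the WT library of TS13 the TS12 knockout library had about the same Aldh1a2 level. The separately normalised T+ library of WT embryos at TS12 had 13.0 FPKM.

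The other 6 compared members were within 2-fold at TS12. Cited1, a transcriptional coactivator, had 79.4 FPKM in T KO and 137.7 in WT, a difference of -0.79, and Dll3, a Notch ligand of the segmentation clock, had 9.90 in T KO and 17.4 in WT, a difference of -0.75. Both fell over the 2 stages (limma adjusted p = 0.019 and 0.023). Hes7, the oscillating repressor of the clock, had 5.89 FPKM in T KO and 9.36 in WT, and Lfng, which glycosylates Notch, had 5.14 in T KO and 6.94 in WT. Epha4, an Eph receptor of the somite boundary, had 24.6 in T KO and 32.4 in WT, and Lef1, a nuclear effector of Wnt signalling, had 57.01 in T KO and 61.1 in WT. In every one of these 6 genes both knockout libraries were below both WT libraries, as in 22.3% of the 8143 genes tested. Of the 11 members under 5 FPKM, 7 were listed at 0 in T KO, among them Mesp2, Ripply2 and Pcdh8, which stood at 0.19, 0.64 and 0.81 FPKM in WT. Mesp2 was thus within the WT background.

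**Figure D2:**
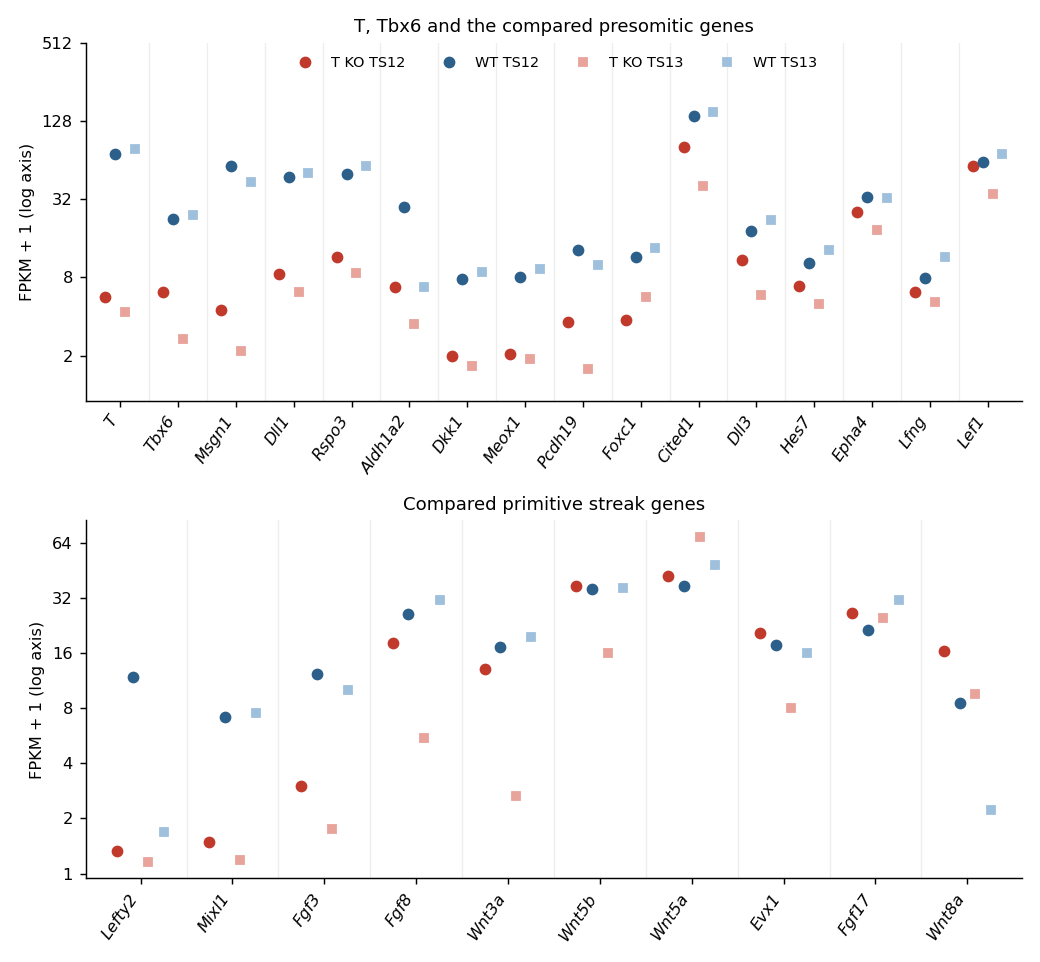
FPKM + 1 on a log axis for T, Tbx6 and the 14 compared presomitic genes (top) and the 10 compared primitive streak genes (bottom), 1 point per library. Circles are TS12, squares TS13, red T KO and blue WT. From Msgn1 to Foxc1 both knockout points lie below both WT points, while Wnt8a is higher in T KO and Lefty2 is high in the TS12 WT library alone.

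Genes of the primitive streak and its nascent mesoderm were split. Of 20 listed genes 10 were compared, 3 were lower (30.0%, against 0.958% of all genes) and 0 were higher. The median was -0.18, with 5 members on each side of 0. By limma 2 fell and 1 rose of 10 tested, against 0.798% and 0.663% of all 8143 genes. Mixl1, a homeobox factor of the streak, had 0.48 FPKM in T KO and 6.13 in WT at TS12, and 0.19 in T KO and 6.53 in WT at TS13. It fell (limma log2 change -2.46, SE 0.38, adjusted p = 0.0092). Fgf3, an FGF ligand of the streak, had 2.01 FPKM in T KO and 11.3 in WT at TS12, and 0.74 in T KO and 9.01 in WT at TS13. It fell too (limma log2 change -2.27, SE 0.26, adjusted p = 0.002). Lefty2, a secreted Nodal inhibitor, had 0.33 FPKM in T KO and 10.8 in WT at TS12, but 0.15 in T KO and 0.69 in WT at TS13, and it did not pass limma (adjusted p = 0.23).

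The streak ligands Fgf8, Wnt3a, Wnt5b and Wnt5a stayed within 2-fold at TS12, unlike Fgf3. Fgf8 had 17.2 FPKM in T KO and 25.1 in WT, a difference of -0.52, and Wnt3a had 12.05 in T KO and 16.3 in WT, a difference of -0.41. Neither passed limma over the stages (adjusted p = 0.059 and 0.10). Wnt5b was at 36.1 FPKM in T KO and 34.6 in WT, and Wnt5a at 40.9 in T KO and 36.1 in WT. Fgf4 was under the minimum and so was not compared, but its level in T KO, 0.62 FPKM, was far below that in WT, 4.83 FPKM. Whether the effect on a gene differed between TS12 and TS13 could not be tested with 1 library per group.

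Axial progenitor genes leaned the other way at TS12. Their summed level was 1146.8 FPKM in T KO and 958.1 in WT at TS12, but 826.9 in T KO and 963.8 in WT at TS13. All 17 listed genes were compared, 2 were higher (11.8%, against 0.946% of all genes) and 1 was lower (5.9%, against 0.958%). A positive difference was found in 12, against 4242 of all 7825 genes, and the median was 0.31. Over both stages 4 rose and 1 fell by limma, against 0.663% and 0.798% of all 8143 genes. Hes3, a Hes-family repressor of progenitor and neural cells, had 9.13 FPKM in T KO and 1.62 in WT at TS12, and 30.1 in T KO and 2.35 in WT at TS13. It rose (limma log2 change 2.58, SE 0.28, adjusted p = 0.0011). Nkx1-2, a homeobox factor of the caudal lateral epiblast, had 77.2 FPKM in T KO and 35.0 in WT at TS12, and 60.6 in T KO and 25.9 in WT at TS13. It rose too (limma log2 change 1.16, SE 0.15, adjusted p = 0.0031). Both genes were higher in each knockout library than in either WT library.

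Sp8 and Wnt8a stayed just under a difference of 1 on the log2(FPKM + 1) scale at TS12 and passed the test. Sp8, a zinc finger factor of the caudal epiblast, had 32.1 FPKM in T KO and 15.9 in WT, and it rose over both stages (limma log2 change 0.79, adjusted p = 0.039). Wnt8a, a Wnt ligand of the streak, had 15.5 FPKM in T KO and 7.59 in WT, and it rose as well (limma adjusted p = 0.021). The caudal factors were somewhat higher at TS12 without reaching 2-fold. Cdx1 had 50.4 FPKM in T KO and 32.8 in WT, Cdx2 93.2 in T KO and 68.4 in WT, and Cdx4 205.1 in T KO and 136.0 in WT. None of them passed limma, where adjusted p-values were 0.68 to 0.99, and at TS13 each was lower in T KO than in WT.

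Cyp26a1, which degrades retinoic acid in the tail bud, was the lower member of the list. It had 11.5 FPKM in T KO and 45.1 in WT at TS12, and 6.12 in T KO and 77.6 in WT at TS13, and it fell (limma log2 change -2.67, SE 0.29, adjusted p = 0.0011). The remaining members lay within 2-fold at TS12, with differences of -0.52 for Fgf8 to 0.43 for Sall4. Sall4, a zinc finger factor of early progenitors, had 74.8 FPKM in T KO and 55.2 in WT. Lin28a, an RNA-binding protein of early progenitors, had 405.4 FPKM in T KO and 389.4 in WT. Sp5, a direct Wnt target, had 11.7 in T KO and 12.1 in WT.

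**Figure D3:**
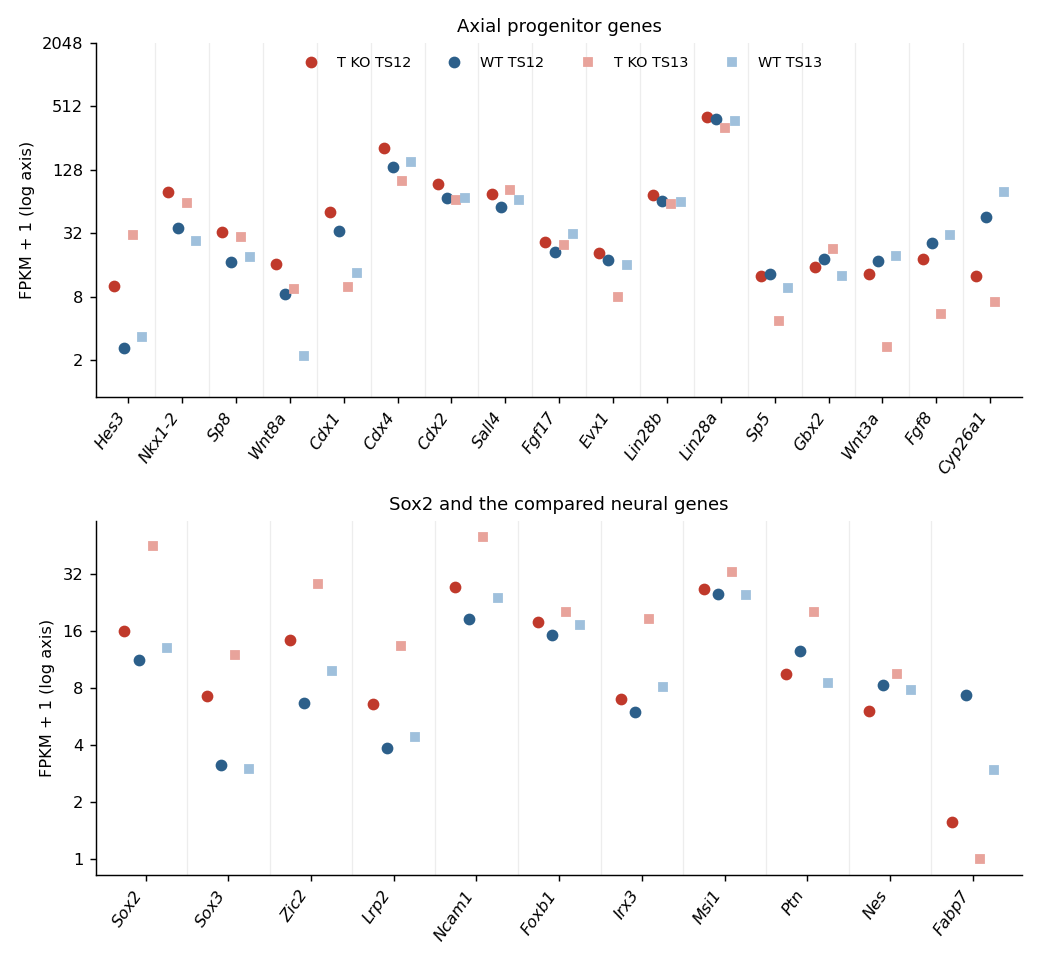
FPKM + 1 on a log axis for the 17 axial progenitor genes (top) and Sox2 with the 10 compared neural genes (bottom), 1 point per library, ordered by the difference at TS12 from higher to lower in T KO after Sox2. Circles are TS12, squares TS13, red T KO and blue WT. Hes3, Nkx1-2, Sox3 and Zic2 are higher in both knockout libraries, and Cyp26a1 and Fabp7 are lower in both.

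Most neural genes were under the minimum or within 2-fold at TS12. Of 25 listed genes Sox2 was left out, 14 were under the minimum and 10 were compared. Of these 2 were higher (20.0%, against 0.946% of all genes) and 1 was lower (10.0%, against 0.958%). A positive difference was found in 7, against 4242 of all 7825 genes, and the median was 0.23. Sox3, a SoxB1 factor like Sox2, had 6.24 FPKM in T KO and 2.12 in WT at TS12, and it rose over both stages (limma log2 change 1.61, SE 0.27, adjusted p = 0.017). Zic2, a zinc finger factor of the dorsal neural plate and caudal epiblast, had 13.2 FPKM in T KO and 5.67 in WT, and it rose too (limma log2 change 1.31, SE 0.17, adjusted p = 0.0033). Ncam1, a neural adhesion molecule, had 26.1 FPKM in T KO and 17.5 in WT and rose as the third of 12 tested members (adjusted p = 0.047).

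Markers of committed neural cells were low at TS12. Sox1, which marks neural cells that have left the neuro-mesodermal progenitor state, had 1.27 FPKM in T KO and 0.34 in WT at TS12. That WT value was within the WT background. At TS13 Sox1 had 9.98 FPKM in T KO and 0.57 in WT. Pax6, a factor of the neural tube, had 3.37 FPKM in T KO and 2.05 in WT. Irx3, expressed in early neural tube, had 5.98 in T KO and 4.98 in WT. Fabp7, a fatty acid binding protein of radial glia, was the one lower gene of the list, with 0.57 FPKM in T KO and 6.34 in WT at TS12, and 0 in T KO and 1.96 in WT at TS13. It did not pass limma (adjusted p = 0.096).

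Signalling genes are given by pathway. Of 14 compared Notch and clock genes 2 were lower (14.3%, against 0.958% of all genes) and 0 were higher. The lower ones were Dll1 and the feedback inhibitor Nrarp (8.69 FPKM in T KO and 19.4 in WT). The receptors Notch1 (7.39 FPKM in T KO and 10.5 in WT), Notch2 (10.6 in T KO and 9.61 in WT) and Notch3 (9.10 in T KO and 6.17 in WT) and the effector Hes1 (28.1 in T KO and 32.7 in WT) were within 2-fold. By limma 4 of 16 tested members fell, against 0.798% of all genes. They were Dll1, Dll3, Nrarp and the effector Hey1 (limma adjusted p = 0.039).

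Of 13 compared Wnt receptors and modulators 3 were lower (23.1%, against 0.958% of all genes), Rspo3, Dkk1 and Frzb, and 0 were higher. Frzb, a secreted Wnt antagonist, had 10.3 FPKM in T KO and 31.3 in WT at TS12 and fell over both stages (limma log2 change -1.65, SE 0.16, adjusted p = 4.94e-04). The receptor Fzd10 was at 75.2 FPKM in T KO and 66.0 in WT, and Sfrp2, another antagonist, at 17.9 in T KO and 10.5 in WT, and it rose over both stages (limma adjusted p = 0.027). None of the 12 compared Wnt effectors and targets was called at TS12, where only 1.90% of all genes were. Axin2, the feedback target used as a readout of Wnt activity, had 45.1 FPKM in T KO and 39.7 in WT. Among 5 compared Wnt ligands Wnt6 was higher, at 7.21 FPKM in T KO and 1.96 in WT, but 2.35 in T KO and 2.196 in WT at TS13. It was high in the TS12 knockout library alone and did not pass limma (adjusted p = 0.43).

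Of 5 compared FGF ligands and receptors 2 were lower, Fgf3 and Fgf15 (3.57 FPKM in T KO and 8.92 in WT), and both fell by limma, as did Fgf18, which entered that test through TS13. The receptor Fgfr1 was at 21.4 FPKM in T KO and 18.3 in WT. None of the 11 feedback and target genes was called, where only 1.90% of all genes were, and they had a median of 0.19. Spry4 had 17.3 FPKM in both libraries, Dusp6 had 44.6 in T KO and 44.5 in WT, and Etv4 had 26.8 in T KO and 20.3 in WT.

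Of 8 compared retinoic acid genes 2 were lower (25.0%, against 0.958% of all genes) and 1 was higher (12.5%, against 0.946%). The lower ones were the synthesis enzyme Aldh1a2 and the degrading enzyme Cyp26a1, and the higher one was Crabp2. Crabp2, which carries retinoic acid to its nuclear receptors, had 288.7 FPKM in T KO and 138.8 in WT at TS12, and 506.0 in T KO and 212.8 in WT at TS13, and it rose (limma log2 change 1.15, SE 0.18, adjusted p = 0.011). The receptors Rara (6.02 FPKM in T KO and 5.27 in WT) and Rarg (53.7 in T KO and 35.3 in WT) were within 2-fold. Of 15 compared BMP, Nodal and TGF-beta genes, 1 was lower and 1 was higher (6.7% each, against 0.958% and 0.946% of all genes). Lefty2 was lower and the BMP antagonist Noggin (Nog) was higher, with 5.53 FPKM in T KO and 2.16 in WT. Nog did not pass limma (adjusted p = 0.12). Bmp4 had 19.3 FPKM in T KO and 15.6 in WT.

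The Hox genes of the anterior and central groups, which give cells their position along the axis, all passed the minimum. All 27 listed genes were compared, 1 was higher (3.7%, against 0.946% of all genes) and 0 were lower. A positive difference was found in 20, against 4242 of all 7825 genes, and the median was 0.38. Hoxa6 was the higher one, at 5.92 FPKM in T KO and 1.69 in WT. The highest of the list were Hoxb9, with 128.9 FPKM in T KO and 75.1 in WT, and Hoxc8, with 112.9 in T KO and 65.9 in WT. Over both stages Hoxb9 and Hoxc6 rose (limma adjusted p = 0.049 and 0.031). None of the 12 posterior Hox genes reached 5 FPKM at TS12, and their summed level was 3.88 FPKM in T KO and 10.1 in WT. Hoxa10 made up 1.18 FPKM of the sum in T KO and 3.91 of that in WT.

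**Figure D4:**
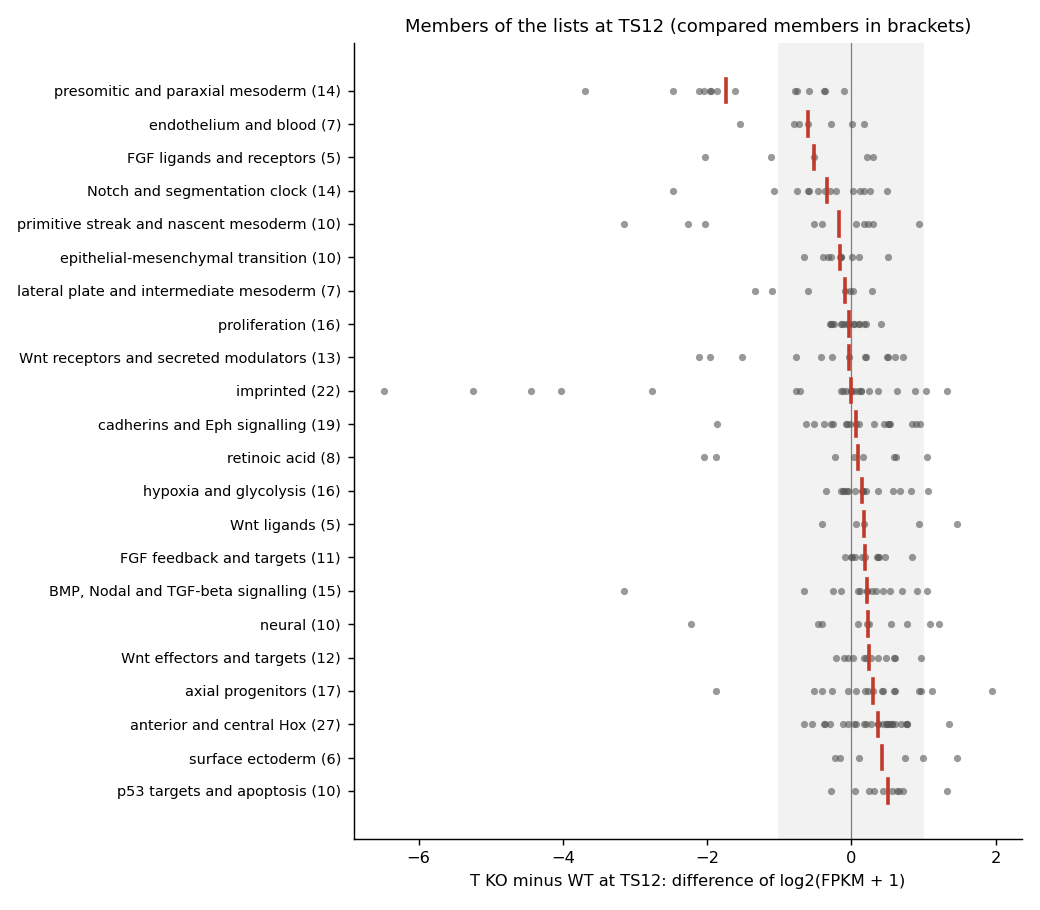
Difference of log2(FPKM + 1), T KO minus WT at TS12, for every compared member of the lists with at least 5 of them (grey points), with the median of each list as a red bar. Brackets give the number compared and the shaded band marks differences under 2-fold. The presomitic list has its median at -1.73, and the other medians shown lie between -0.61 and 0.50, inside the band.

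Markers of other cell types that the sort could hold were followed by their summed level. For lateral plate and intermediate mesoderm, 2 of 7 compared genes were lower (28.6%, against 0.958% of all genes). Foxf1, a forkhead factor of the lateral plate, had 17.5 FPKM in T KO and 38.8 in WT and fell (limma adjusted p = 0.0026), and Tbx4, a T-box factor of the allantois and hindlimb, had 1.82 in T KO and 6.10 in WT. The sum over its 15 markers was 100.4 FPKM in T KO and 131.8 in WT. Hand1 (15.2 FPKM in T KO and 15.0 in WT) and Hand2 (13.6 in T KO and 14.4 in WT) were near equal.

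Blood and vessel markers summed to 432.2 FPKM in T KO and 840.3 in WT over 15 genes, and none was at 0 in either library. Most of each sum came from globins. Hbb-bh1, an embryonic beta-like globin, had 161.3 FPKM in T KO and 473.8 in WT and was the 1 of 7 compared markers called lower, while Hbb-y had 97.8 in T KO and 97.1 in WT. The vessel receptor Kdr had 25.3 FPKM in T KO and 30.95 in WT. The adult-type alpha globins went opposite ways, Hba-a2 with 49.3 FPKM in T KO and 227.2 in WT and Hba-a1 with 45.0 in T KO and 16.4 in WT. These genes are near-identical copies between which fragments can be split, so each value is uncertain, and how fragments were shared between them was not tested.

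Endoderm markers summed to 8.55 FPKM in T KO and 16.9 in WT over 13 genes, with Ttr, Afp and Foxa3 at 0 in T KO. None of the 13 was at 0 in WT, but that library held background over silent genes. A 0 in T KO is thus not by itself a difference. Notochord and node markers summed to 8.07 FPKM in T KO and 7.86 in WT over 8 genes. Most of the T KO sum was Noggin. Noto, which defines the node and notochord, was at 0 in T KO and 1.31 FPKM in WT, and Shh was at 0.036 in T KO and 0.67 in WT. Neural crest markers summed to 11.7 FPKM in T KO and 11.4 in WT over 9 genes, and surface ectoderm markers to 117.2 FPKM in T KO and 111.3 in WT over 10. The part of these cell types in the differences above was not tested.

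Germ cell and pluripotency genes included 2 lower ones among 4 compared (50.0%, against 0.958% of all genes). Pou5f1, which encodes Oct4 and is lost from the epiblast as the trunk forms, had 12.01 FPKM in T KO and 35.7 in WT at TS12, and 1.40 in T KO and 9.72 in WT at TS13. It fell (limma log2 change -1.83, SE 0.20, adjusted p = 0.0011), though at TS12 the knockout library was above the WT library of TS13. Pou5f1 was listed at 0 in the separately normalised T+ library of WT embryos at TS12. Dppa3, a gene of primordial germ cells, had 1.23 FPKM in T KO and 8.19 in WT at TS12, and 1.01 in T KO and 8.39 in WT at TS13. It fell as well (limma log2 change -2.13, SE 0.28, adjusted p = 0.0035). Nanog was under the minimum, at 0.43 FPKM in T KO and 1.36 in WT.

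Few genes of cell state were called, and of all compared genes only 1.90% were. At that share, 0 called genes among 10 or 16 is no result about those genes. None of 10 compared genes of the epithelial-mesenchymal transition was called, with Cdh1 (E-cadherin) at 7.401 FPKM in T KO and 6.77 in WT, Cdh2 (N-cadherin) at 52.3 in T KO and 36.3 in WT and vimentin at 58.6 in T KO and 92.8 in WT. Snai1, which represses Cdh1, was under the minimum with 0.76 FPKM in T KO and 2.04 in WT. None of 16 proliferation genes was called, and their median was -0.04. Of 10 compared p53 targets and apoptosis genes Bmf, a BH3-only activator of cell death, was higher, with 5.91 FPKM in T KO and 1.76 in WT, and it rose over both stages (limma adjusted p = 0.013). The list's median was 0.50, with 9 of 10 members positive, against 4242 of all 7825 compared genes. Of 16 hypoxia and glycolysis genes the glucose transporter Slc2a3 was higher, with 387.8 FPKM in T KO and 184.9 in WT, and it rose (limma adjusted p = 0.035), while lactate dehydrogenase Ldha had 1467 in T KO and 1525 in WT.

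Among the 15 lowest and 15 highest genes, some belonged to no list. Arg1, which encodes arginase, had 0.36 FPKM in T KO and 27.6 in WT at TS12, and 0.43 in T KO and 15.8 in WT at TS13. It fell (limma log2 change -3.98, SE 0.27, adjusted p = 3.01e-05), and it was the lowest gene that is in no list. Sema3a, a secreted guidance cue, had 18.9 FPKM in T KO and 6.58 in WT at TS12, and 32.3 in T KO and 11.6 in WT at TS13. It rose (limma log2 change 1.39, SE 0.15, adjusted p = 0.0011).

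Other high-ranking genes varied in how they stood at TS13. Sema4d, a membrane semaphorin, had 13.6 FPKM in T KO and 4.05 in WT at TS12, and 6.83 in T KO and 3.96 in WT at TS13 (limma adjusted p = 0.057). Dclk2, a doublecortin-like kinase, had 5.93 FPKM in T KO and 1.55 in WT at TS12 and did not pass either (limma adjusted p = 0.30). Mt1, a metallothionein, had 6.39 FPKM in T KO and 1.26 in WT at TS12, and 32.2 in T KO and 12.7 in WT at TS13. It rose with stage as a term (limma log2 change 1.49, SE 0.19, adjusted p = 0.003), although the TS12 knockout library was below the TS13 WT library. Erdr1 had 497.4 FPKM in T KO and 189.8 in WT at TS12 and rose as well (limma adjusted p = 0.0027). Rnaset2a, a ribonuclease gene with a near-identical copy, went opposite ways, with 22.6 FPKM in T KO and 5.89 in WT at TS12 and 11.2 in T KO and 32.6 in WT at TS13.

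The largest differences in either direction belonged to imprinted and Y-linked genes. Of 22 compared imprinted genes 5 were lower (22.7%, against 0.958% of all genes) and 2 were higher (9.1%, against 0.946%). Rian, a maternally expressed long RNA of the Dlk1-Dio3 locus on chromosome 12, had 0.22 FPKM in T KO and 107.3 in WT at TS12, and 0.18 in T KO and 110.0 in WT at TS13. It fell by 6.52 on the log2 scale (SE 0.16, limma adjusted p = 7.07e-09). Its neighbours Meg3 (0.063 FPKM in T KO and 22.1 in WT), Mirg (0.074 in T KO and 16.4 in WT) and Rtl1 (0.37 in T KO and 8.29 in WT) were lower too, and each fell. Dlk1, which like Rtl1 is a paternally expressed gene of the locus, was higher at 10.2 FPKM in T KO and 3.50 in WT and did not pass limma (adjusted p = 0.33).

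H19, the maternally expressed RNA beside Igf2, had 7.95 FPKM in T KO and 338.1 in WT at TS12, and 13.1 in T KO and 577.7 in WT at TS13. It fell by 5.30 on the log2 scale (SE 0.15, limma adjusted p = 1.51e-08). Igf2, paternally expressed, had 286.9 FPKM in T KO and 185.2 in WT and was not called. Airn, the antisense RNA of Igf2r, had 10.7 FPKM in T KO and 4.73 in WT at TS12, and 15.8 in T KO and 10.9 in WT at TS13. Igf2r itself was at 45.98 FPKM in T KO and 43.2 in WT.

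The other libraries of the series also varied in these genes. In the Tbx6+ libraries of TS14, both labelled C57BL/6J and with titles and source names that contradict each other on genotype, H19 had 1036 FPKM under the title Tbx6 KO and 43.2 under the title WT, and Meg3 had 1.16 under the title Tbx6 KO and 0.40 under the title WT. In the separately normalised T+ library of WT embryos at TS12, labelled C57BL/6N, H19 had 9.69 FPKM and Meg3 50.9. The 3 compared Y-linked genes were higher in T KO. Eif2s3y had 19.8 FPKM in T KO and 0.026 in WT, Ddx3y 11.0 in T KO and 0.37 in WT, and Uty 9.60 in T KO and 0.25 in WT, and all WT values were within the WT background. Xist was at 0.071 FPKM in T KO and 0.24 in WT. The part of strain, stem cell line or embryo sex in the differences between T KO and WT cannot be told apart from the genotype here. Without imprinted, Y-linked and histone genes, 58 genes were higher and 70 lower at TS12.

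**Figure D5:**
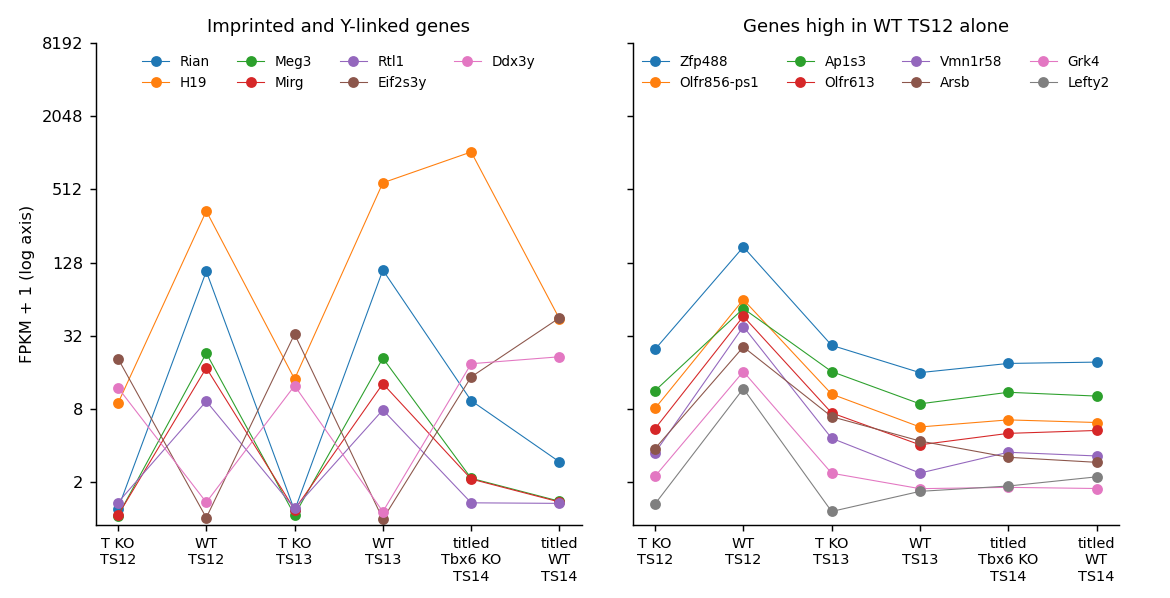
FPKM + 1 on a log axis in the 6 libraries of the table for imprinted and Y-linked genes (left) and for 8 genes high in the TS12 WT library alone (right); the lines only join the points of a gene. On the left Rian, Meg3, Mirg and Rtl1 are high in both T+ WT libraries, while H19 is also high in the library titled Tbx6 KO. On the right Zfp488 stands at 23.8 in T KO and 170.9 in WT at TS12, and every gene shown has its highest point in WT at TS12.

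Part of the lower side rested on the WT library of TS12. Of the 75 lower genes, 15 were at least 2-fold above each of the other 5 libraries of the table in that library alone, and of 74 higher genes 5 were so in the TS12 knockout library. Zfp488 had 23.8 FPKM in T KO and 170.9 in WT at TS12, and 25.8 in T KO and 15.0 in WT at TS13. The receptor genes Vmn1r58 (2.51 FPKM in T KO and 37.1 in WT), Olfr613 (4.53 in T KO and 45.3 in WT) and the pseudogene Olfr856-ps1 (7.12 in T KO and 62.5 in WT) behaved alike, as did Grk4 (1.25 in T KO and 15.3 in WT), Arsb (2.80 in T KO and 24.9 in WT) and Ap1s3 (10.3 in T KO and 52.7 in WT). None of these 7 passed limma, where adjusted p-values were 0.45 to 0.61. Pou5f1, Aldh1a2 and Lefty2 belonged to the same 15. Without genes high in 1 of the TS12 libraries alone, 69 were higher and 60 lower.

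In the TS13 pair, whose libraries are others, 44 of the 75 lower genes were at least 2-fold lower, against 1.33% of all 7825 genes compared at TS12. Of the 74 higher genes 24 were at least 2-fold higher at TS13, against 0.690% of all. At TS13 the difference had the opposite sign in 15 of the 75 lower genes and in 18 of the 74 higher ones. The strain labels of the TS13 pair differ in the same way, so genotype and strain label cannot be told apart there either.

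The clustered histone genes, whose transcripts mostly lack a poly(A) tail, made up 11 of the 74 higher genes. Of 61 compared histone genes 11 were thus higher, against 0.946% of all genes, and 59 had a positive difference, against 4242 of all 7825. The histone median was 0.74. In this the WT library of TS12 was the low one. The median over the same genes was -0.21 for T KO at TS12 minus WT at TS13, -0.18 for T KO minus WT at TS13 and 0.97 for WT at TS13 minus WT at TS12. Hist1h2ap led with 95.4 FPKM in T KO and 14.5 in WT at TS12, but it was listed at 0 in both TS13 libraries, and its family holds near-identical copies. Hist1h2ae had 43.7 FPKM in T KO and 16.2 in WT at TS12, and 39.3 in T KO and 41.7 in WT at TS13.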

How the data were processed

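RNA of sorted T+ cells was measured by RNA-seq in 1 T KO and 1 WT library of TS12, beside the T+ pair of TS13. The deposited values are FPKM per gene symbol, made by the authors, and the submitters' processing notes name TopHat2 2.1.0, Bowtie 1.1.2, Cufflinks 2.2.1, Cuffdiff, SAMtools, Picard 1.103, bedtools 2.23.0 and the build mm10 without their roles. The sources used here do not give the annotation or any scaling across libraries. Counts were not used, so depth was estimated from low FPKM values, which step by whole fragments (genes up to 6000 bases, tolerance 0.0003 of the fragment number), and intervals from it cover counting error only.

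Differences are of log2(FPKM + 1), which understates the change of low genes, for genes with at least 5 FPKM in either library. limma 3.58.1 in R 4.3.3 with an empirical Bayes trend tested the 4 T+ libraries, with genes at 5 FPKM or more in 1 of them. Nothing says that libraries came from separate cultures or clones. The p-values therefore set an effect only against how far effects departed between the stages, an error partly borrowed across genes. The fit was tested on simulated data with independent noise and the same genotype effect at both stages. These held no stage effect and no WT background, so that test does not speak to the limits of the real libraries. Other tools were Python 3.11.15, pandas 2.3.3, numpy 2.4.6 and matplotlib 3.10.9. Of 23983 symbols, 3215 numbered gene models, 1247 small RNA genes and 7 ribosomal protein pseudogenes were left out. Named genes are T, Tbx6 and Sox2, the 15 highest and 15 lowest at TS12, and list members, those past 2-fold first; genes at the thresholds, genes flanking T, Hba-a2, Ap1s3 and members named as within 2-fold were added after their values were seen. One gene that the rule names is not reported here. The members and lists were chosen with earlier results of these data known. Symbols were matched to RefSeq on GRCm38.p6, 22567 of them. Alternatives were other pseudocounts, minimum levels, scalings, a background correction, WT of TS13 as the control, and fits without the stage term.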

Additional observations from a re-analysis of the deposited data

Results flagged for a closer look

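Rnaset2a, a ribonuclease gene, had opposite differences at the 2 stages. Its log2(FPKM + 1) difference, T KO minus WT, was 1.78 at TS12 and -1.46 at TS13, each from 1 library per genotype. The difference between the stages was not tested. Rnaset2a has a near-identical copy with which fragments can be shared, and its part in these values was not tested.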

How the results depend on the processing

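At TS12, the counts of 74 higher and 75 lower genes became 30 and 37 with a pseudocount of 5, and 33 and 27 with a minimum of 20 FPKM. They became 47 higher and 101 lower against the WT library of TS13, and with no minimum 104 higher and 162 lower. A pseudocount of 0.1, both scalings, background subtraction and counting all symbols left them within 1.5 times, and the median over all genes within 0.1. Genes of the lists past 2-fold numbered 41 of 248, and 26 with a pseudocount of 5, which took the presomitic median to -0.98. The limma counts, 54 risen and 65 fallen, depend on the stage term: without it 3 rose and 9 fell. With a minimum fold of 1.5 they were 6 and 19, with a minimum of 20 FPKM 8 and 13, with no minimum 232 and 343, with a pseudocount of 5 34 and 51, and with upper-quartile scaling 36 and 36. The fit with the stage term has no residual degree of freedom once a library is left out, so leave-one-out fits had none, an alternative added after seeing the data. They gave 0 to 7 risen and 5 to 17 fallen genes, where the lone library is assumed to vary like the others. The lowest counts, 0 and 5, came without T KO of TS13, the highest rising count, 7, without WT of TS12, and the highest falling count, 17, without WT of TS13. For each of these changes the cause was not tested.

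Of 59 named genes all kept direction and 2-fold call under upper-quartile scaling and background subtraction, and 42 under a pseudocount of 5. Against WT of TS13, 36 kept the call, 13 fell under 2-fold, and 10 reversed: Vmn1r58 (0.56), Olfr613 (0.44), Olfr856-ps1 (0.51), Grk4 (0.34), Zfp488 (0.64) and Pou5f1 (0.28) from lower to higher, and Rnaset2a (-0.51), Mt1 (-0.89), Hba-a1 (-2.44) and Airn (-0.018) from higher to lower. No paired analysis was possible because every group has 1 library, so that no replicate numbers are shared; the stage term of the limma fit pairs the libraries of a stage. Single libraries and a counting error near 10% at 5 FPKM for 1 kb limit what low genes can show.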
